A study of Mus musculus with 32 samples.

Results

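The mouse oogenesin genes Oog1, Oog2, Oog3 and Oog4 were described across the 16 groups of a study of oocytes, early embryos and stem cells. They were picked by name: the 4 rows of the count table, out of 55335 genes, whose Ensembl identifier carries one of these symbols in the mouse GENCODE annotation of mm10. They had been singled out because of their lower counts in growing oocytes with the histone mutant H3.3K4M. Their values in that comparison are therefore given as a description, with no test.

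RNA sequencing was done on 32 libraries, 2 per group. Growing oocytes were taken at postnatal day 14 from ovaries and were either H3.3K4M transgenic or, as their controls, H3.3WT transgenic, so that both groups carried an H3.3 transgene. H3.3K4M is the histone variant H3.3 with methionine in place of lysine 4, a form known to lower H3K4 methylation in cells that make it. The promoter that drives either transgene is not given in the sources used here. MII oocytes, the mature eggs arrested in the second meiotic division, were wild type and came from 12-month or 8-week females. The 2-cell embryos were wild type: one group came from 12-month females with no treatment, and 4 groups from 6-8-week females were cultured with aphidicolin (APH), cycloheximide (CHX), MG132 or the solvent DMSO. The titles of these and of the 4-cell samples begin with IVF, the usual short form of in vitro fertilisation. The 4-cell embryos had the same 4 treatments and the same maternal age as the treated 2-cell embryos, and cells of AB2.2, a wild-type embryonic stem cell line, were given CHX, MG132 or DMSO. Aphidicolin blocks replicative DNA polymerases, cycloheximide blocks translation and MG132 blocks the proteasome. The sources used here do not give doses or times. The libraries held between 14313718 and 34713159 counts over genes and repeat families.

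Oogenesins are leucine-rich repeat proteins of the PRAME family, a family with many tandem copies in rodents, and in the mouse they are made in oocytes and carried into the early embryo. Mouse OOG1 was isolated as a partner of RalGDS, the exchange factor that links Ras to Ral, and human PRAME is a substrate receptor of a CUL2 ubiquitin ligase. Oocytes build up such transcripts while they grow, stop transcription before they mature, and lose most maternal RNA around the time when the embryonic genome starts.

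On mm10, Oog4 lies on the minus strand of chromosome 4 at chr4:143437164-143450324 (ENSMUSG00000047799.15). Oog3 lies on the same strand at chr4:144157557-144162663 (ENSMUSG00000050810.8). Oog2 is its neighbour on the plus strand at chr4:144190719-144196934 (ENSMUSG00000066030.6). Oog1 is on the plus strand of chromosome 12 at chr12:87602688-87608850 (ENSMUSG00000096576.2). The annotation calls all 4 protein-coding. Their reference transcripts were between 75.3% identical (Oog2 with Oog4) and 80.5% identical (Oog1 with Oog3).

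The 250 bases before the RefSeq start of each gene (build GRCm38.p6) are shown because the 4 genes, of which Oog2 and Oog3 are neighbours and Oog1 is on another chromosome, hold the same short stretches in this window. The last bases of the Oog3 window already lie within the GENCODE gene. The sequences read 5′ to 3′ along the gene, and capitals mark each exact run of at least 8 bases that is found in all 4. The windows are chr12:87602415-87602664 on the plus strand for Oog1, chr4:144190467-144190716 on the plus strand for Oog2, chr4:144162652-144162901 on the minus strand for Oog3 and chr4:143450325-143450574 on the minus strand for Oog4.
Oog1: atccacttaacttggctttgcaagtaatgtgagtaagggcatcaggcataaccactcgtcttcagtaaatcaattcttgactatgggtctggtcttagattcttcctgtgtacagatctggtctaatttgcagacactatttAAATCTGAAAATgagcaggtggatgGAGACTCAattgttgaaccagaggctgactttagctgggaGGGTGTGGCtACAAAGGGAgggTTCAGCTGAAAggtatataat
Oog2: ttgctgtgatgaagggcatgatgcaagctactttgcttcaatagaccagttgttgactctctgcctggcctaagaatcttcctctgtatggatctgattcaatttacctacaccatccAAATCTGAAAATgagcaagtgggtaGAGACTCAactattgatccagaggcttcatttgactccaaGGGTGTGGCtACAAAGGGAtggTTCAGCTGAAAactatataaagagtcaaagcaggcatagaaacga
Oog3: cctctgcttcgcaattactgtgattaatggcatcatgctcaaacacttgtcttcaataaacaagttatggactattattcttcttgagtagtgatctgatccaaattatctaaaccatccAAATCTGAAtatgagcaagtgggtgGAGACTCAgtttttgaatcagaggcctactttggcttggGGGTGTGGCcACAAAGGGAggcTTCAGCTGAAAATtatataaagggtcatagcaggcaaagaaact
Oog4: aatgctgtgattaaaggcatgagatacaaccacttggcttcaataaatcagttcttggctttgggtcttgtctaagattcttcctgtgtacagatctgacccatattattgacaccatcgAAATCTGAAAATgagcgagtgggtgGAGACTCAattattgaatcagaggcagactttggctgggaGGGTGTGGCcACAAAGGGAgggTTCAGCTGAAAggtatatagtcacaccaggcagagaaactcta

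The 4 windows were between 77.4% identical (Oog1 with Oog2) and 84.6% identical (Oog1 with Oog4) when aligned in pairs. The longest run common to all was TTCAGCTGAAA, 11 bases that begin at -21 in Oog1, -45 in Oog2, -44 in Oog3 and -43 in Oog4, counted from the RefSeq start. On either strand this run was in 0.0426% of 32851 promoter windows of the same length, 14 in all. The other 9 genes that held it included Gm2042 and 3 further PRAME-like genes, C87499, Gm13084 and Gm13089. Shorter common runs were AAATCTGAA in 0.374% of windows, ACAAAGGGA in 0.42%, GGGTGTGGC in 1.21%, GAGACTCA in 1.2% and CTGAAAAT in 1.29%. The first of these overlaps the last in Oog1, Oog2 and Oog4. In Oog3 the run CTGAAAAT lies at -39 and overlaps TTCAGCTGAAA.

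Motifs known for oocyte transcription factors were searched on both strands. TAATTG, a form bound by the homeobox factor NOBOX, was found once in the window of Oog3, at -239, and once in that of Oog4, at -99, against 7.17% of all windows and 8 of 30 windows of other PRAME-like genes. The related letters TAATTA, in 4.84% of windows, and TGATTG, in 12.7%, were in none of the 4. CANNTG, the E-box bound by basic helix-loop-helix factors such as FIGLA and SOHLH1, occurred 3 times in Oog1, 4 times in Oog2, 3 times in Oog3 and 2 times in Oog4. In each gene one of these E-boxes lies inside TTCAGCTGAAA. E-boxes are frequent, in 66.2% of windows. TATAAA was found in Oog2 at -30 and in Oog3 at -29, against 12.4% of windows. These matches describe letters, and binding was not measured.

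Part of what the counts can say depends on near copies. Of the 100-base windows along the annotated Oog1 transcripts, 78.0% are also found letter for letter in another gene, mostly Gm2042 (1928 of 2494 windows) and Gm10436 (747). The share was 16.1% for Oog2, all of it with Gm13084, and 10.8% for Oog3, all of it with Gm4350. It was 0.0% for Oog4. With 50-base windows the shares were 89.0% for Oog1, 33.4% for Oog2, 19.7% for Oog3 and 0.7% for Oog4. How reads with several matches were counted is not given in the sources used here, so the Oog1 value is uncertain as a value of that gene alone. Gm2042 and Gm10436 or the sum of the 3 genes are given beside most of its comparisons. To a lesser degree the same limit holds for Oog2 and Oog3, and Gm13084 is given beside some comparisons of Oog2.

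**Figure D1:**
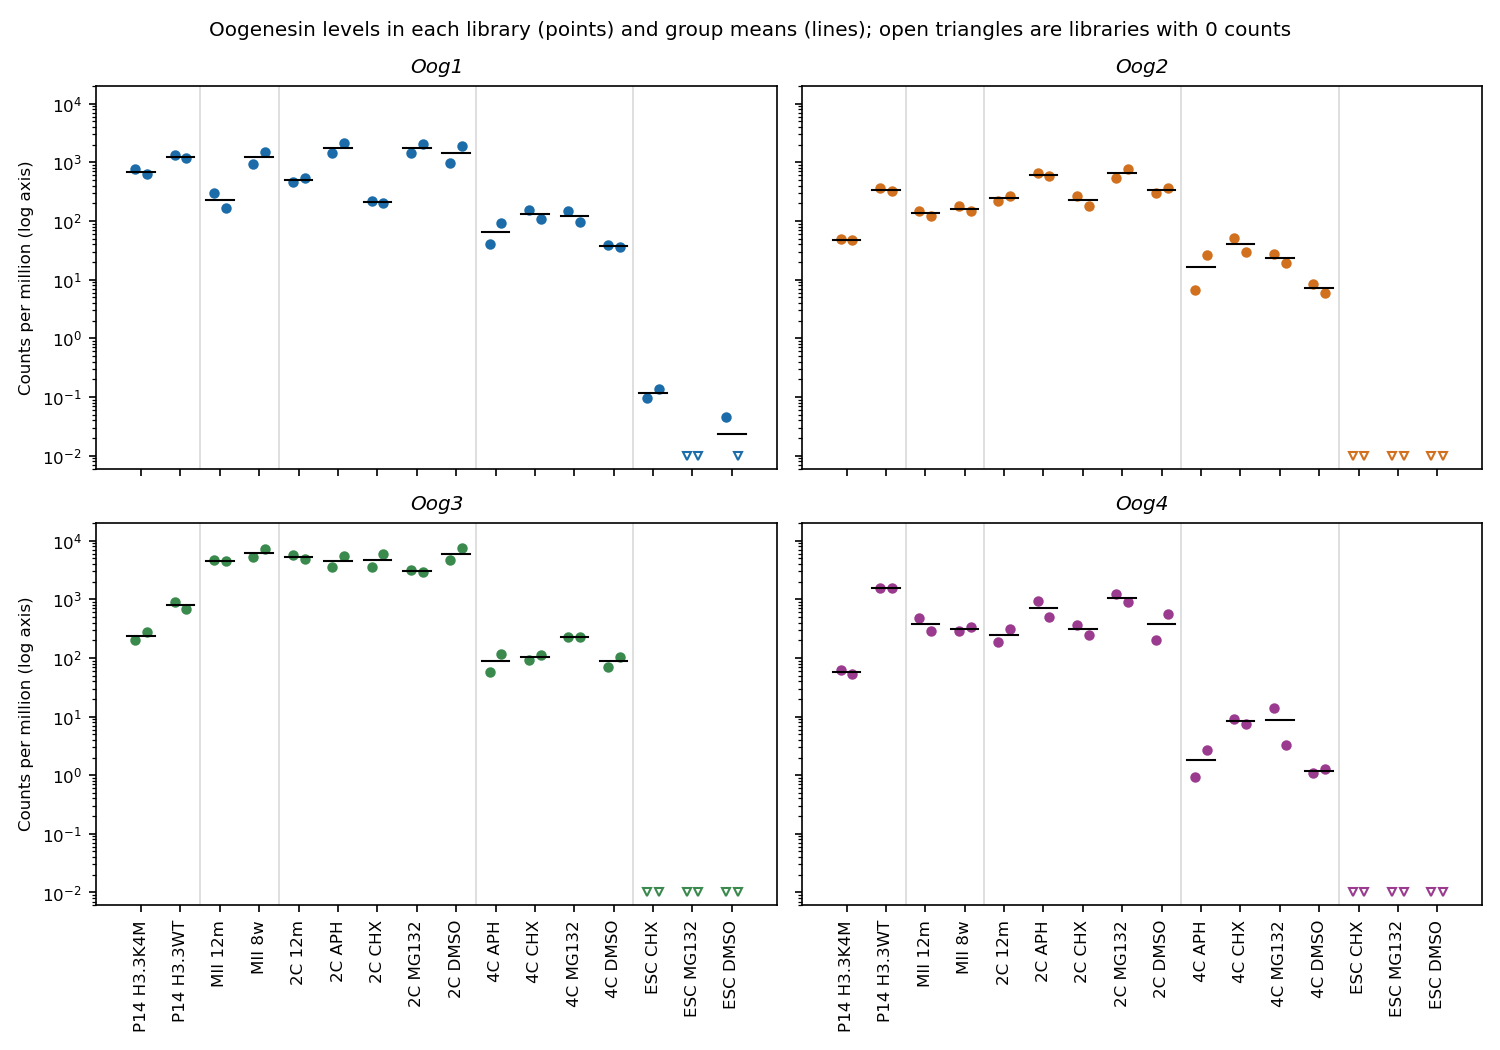
CPM (counts scaled to a library total of 1000000, log axis) of each oogenesin in each of the 32 libraries; points are libraries, lines are the means of the 2 libraries of a group, and open triangles at the bottom are libraries with 0 counts. Oog3 is the highest in MII oocytes and 2-cell embryos, Oog4 is at its top in H3.3WT growing oocytes, and all 4 drop at the 4-cell stage and are at or near 0 in stem cells.

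Levels are given as CPM, the count divided by the library's total over genes and repeats, scaled to 1000000. Over the 16 groups, Oog1 had its highest mean in APH-treated 2-cell embryos (1784 CPM), Oog2 in MG132-treated 2-cell embryos (652 CPM), Oog3 in MII oocytes of 8-week females (6163 CPM) and Oog4 in H3.3WT growing oocytes (1566 CPM). In the order of the group means, neighbouring groups overlapped in 7 of 15 steps for Oog1, 9 for Oog2, 10 for Oog3 and 9 for Oog4. The first 5 groups in the order of Oog3, all of them MII oocytes or 2-cell embryos, each overlapped the next in order; the sixth, APH-treated 2-cell embryos, did not overlap MG132-treated 2-cell embryos below it. Oog4 in H3.3WT growing oocytes did not overlap the group below it, MG132-treated 2-cell embryos. With 2 libraries per group a lack of overlap is easily reached, here and below. The share of all genes without overlap is not given, so a lack of overlap is a description only.

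In growing oocytes all 4 genes were lower with H3.3K4M than with H3.3WT, and by very different amounts. Oog4 had 61.6 and 52.7 CPM in H3.3K4M oocytes, against 1563 and 1570 CPM in H3.3WT oocytes. Oog2 had 49.2 and 46.6 CPM in H3.3K4M oocytes, against 361 and 323 CPM in H3.3WT oocytes. The libraries of the 2 groups were far apart for both genes, and replicates lay close together. Oog3 had 199 and 277 CPM in H3.3K4M oocytes, against 902 and 684 CPM in H3.3WT oocytes. Oog1 had 770 and 623 CPM in H3.3K4M oocytes, against 1308 and 1165 CPM in H3.3WT oocytes. For neither of them did the groups overlap, and Oog1 was the least lowered of the 4.

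In edgeR's fit of all genes the log2 fold change was -4.69 ± 0.23 (SE) for Oog4, a level 25.8-fold lower. It was -2.75 ± 0.18 for Oog2 (6.73-fold lower), -1.66 ± 0.19 for Oog3 (3.17-fold lower) and -0.73 ± 0.21 for Oog1 (1.66-fold lower). Ranked from the lowest log2 fold change among 15386 genes, Oog4 stood at place 114, Oog2 at 580, Oog3 at 1219 and Oog1 at 2470. In this comparison 13.7% of the genes tested were called lower and 22.4% were called in either direction, at an adjusted p under 0.05. With 1 H3.3K4M library left out at a time, the Oog1 value was -1.0 without replicate 1 and -0.48 without replicate 2. Without H3.3WT replicate 1 the number of genes called was 2171, against 3444. In bulk samples of this kind, fewer cells of a type and less RNA per cell cannot be told apart. Nothing in the labels says that the 2 libraries of a group came from separate animals or cultures, so every p-value below measures the spread between these libraries, which may be technical.

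The make-up of the oogenesin pool differed as well. The 4 genes together had 1080 and 1000 CPM in H3.3K4M oocytes, against 4135 and 3743 CPM in H3.3WT oocytes. Of their summed counts Oog4 held 5.7% and 5.3% in H3.3K4M oocytes, against 37.8% and 41.9% in H3.3WT oocytes. Oog1 held 71.3% and 62.3% in H3.3K4M oocytes, against 31.6% and 31.1% in H3.3WT oocytes. Oog4 was thus the largest member by counts in H3.3WT oocytes and among the smallest in H3.3K4M oocytes, where Oog1 was the largest. The Oog1 values may hold reads of its near copies, so the place of Oog1 in these orders and in those below is uncertain. Per kb of all annotated exons, a scaling for length only, H3.3K4M oocytes had 284 CPM per kb of Oog1, 128 of Oog3, 28.8 of Oog4 and 19.3 of Oog2. H3.3WT oocytes had 791 CPM per kb of Oog4, 505 of Oog1, 425 of Oog3 and 138 of Oog2.

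The near copies of Oog1 had values like those of Oog1. Gm2042 had 738 and 514 CPM in H3.3K4M oocytes, against 1298 and 1251 CPM in H3.3WT oocytes, a log2 fold change of -0.92 ± 0.23. Gm10436 had 1711 and 952 CPM in H3.3K4M oocytes, against 2743 and 2636 CPM in H3.3WT oocytes, a log2 fold change of -0.90 ± 0.28. Summed over Oog1 and these 2 genes, the level was 3219 and 2089 CPM in H3.3K4M oocytes, against 5350 and 5052 CPM in H3.3WT oocytes. The groups did not overlap for the sum. Gm13084, which shares windows with Oog2, had 317 and 284 CPM in H3.3K4M oocytes, against 1160 and 1074 CPM in H3.3WT oocytes (-1.81 ± 0.19).

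**Figure D2:**
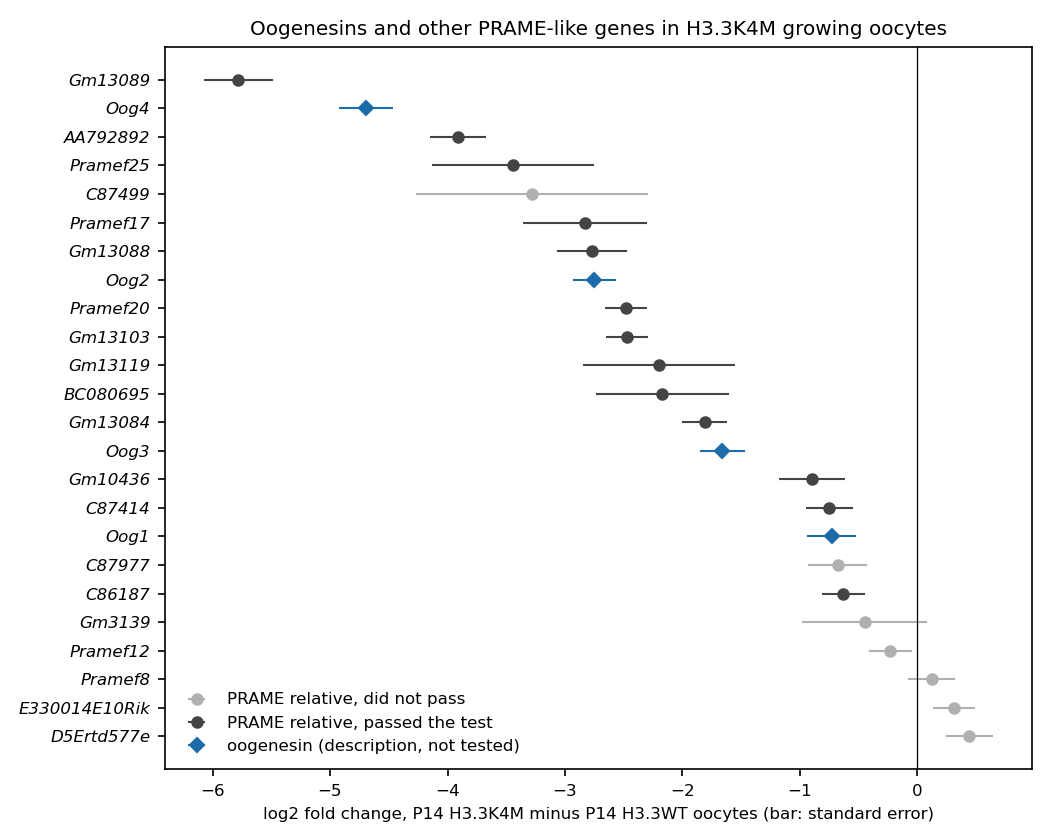
Log2 fold change of the 4 oogenesins (blue diamonds, not tested) and of the 20 other PRAME-like genes with enough counts, H3.3K4M minus H3.3WT growing oocytes; bars are standard errors, dark points passed the test and pale points did not. The 13 genes that passed all lie left of 0, and Oog4 has the second lowest value, next to Gm13089.

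Lower values were not restricted to the oogenesins within their family. Of 41 other PRAME-like genes found in the table, 20 had enough counts for the test; 13 fell and 0 rose in edgeR's quasi-likelihood test (p-values adjusted over all genes), against the 13.7% of all genes called lower. Their median log2 fold change was -1.99, that of all genes tested 0.00. Gm13089 fell the furthest among those with at least 10 CPM: it had 0.22 and 0.265 CPM in H3.3K4M oocytes, against 14.3 and 14.3 CPM in H3.3WT oocytes (log2 fold change -5.78 ± 0.29, adjusted p = 2.8e-07). AA792892 had 6.5 and 12.1 CPM in H3.3K4M oocytes, against 135 and 155 CPM in H3.3WT oocytes (-3.91 ± 0.24, adjusted p = 7.8e-07). Pramef20 and Gm13103 also fell, with log2 fold changes of -2.48 ± 0.18 and -2.47 ± 0.18. Not all genes of the list were so low. C87977 had 2627 and 1718 CPM in H3.3K4M oocytes, against 3975 and 3531 CPM in H3.3WT oocytes. It did not pass (-0.68 ± 0.25, adjusted p = 0.0738, edgeR). E330014E10Rik did not pass either and was not lower (0.31 ± 0.18). Over all settings tried, apart from leaving out a library, between 9 and 16 PRAME-like genes were called lower and between 0 and 2 higher. The genes called lower include Gm10436 and Gm13084, which share sequence windows with Oog1 and Oog2 and may hold some of the same reads. Some, such as Gm13089, had enough counts for the test only in H3.3WT oocytes. Such genes could hardly come out other than lower, and they add to the split and the median. The list was chosen with earlier results of these data known, so its calls and p-values here are a description.

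**Figure D3:**
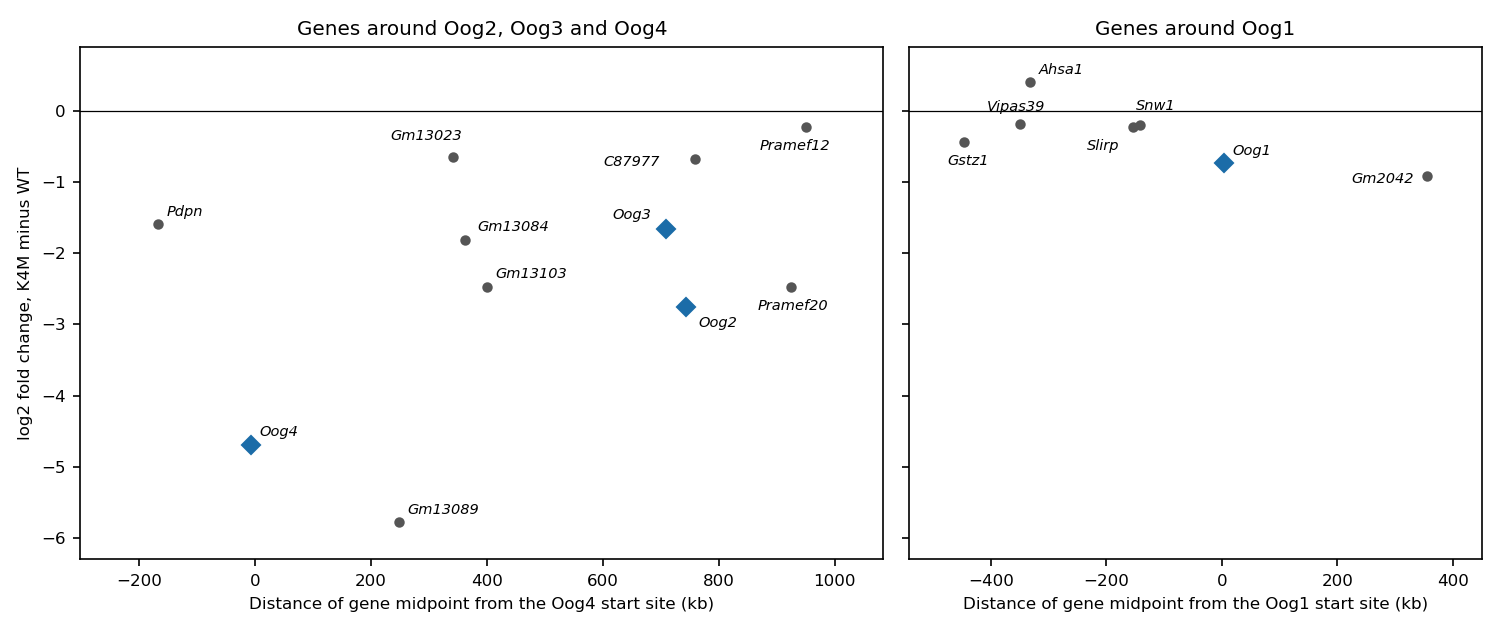
Log2 fold change, H3.3K4M minus H3.3WT growing oocytes, of genes with at least 10 CPM in one of the 2 groups, against the distance of the gene's midpoint from the start site of Oog4 (left) or Oog1 (right) in kb; oogenesins are blue diamonds. Around Oog2, Oog3 and Oog4 all values lie below 0, from -5.78 to -0.23, and the genes around Oog1 lie between -0.92 and 0.41.

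The genes within 500 kb of the members were looked at next. Around Oog2, Oog3 and Oog4 on chromosome 4 there were 66 annotated genes, of which 8 that are no members reached 10 CPM in one of the groups. Their median log2 fold change was -1.70, and 5 of the 8 had a log2 fold change of -1 or less. Of these 5, 4 are PRAME-like genes, and the other is Pdpn, which encodes the membrane glycoprotein podoplanin. Pdpn had 24.4 and 7.68 CPM in H3.3K4M oocytes, against 56.2 and 49.1 CPM in H3.3WT oocytes. Pramef12, at the far end of the same stretch, had 22.7 and 30.2 CPM in H3.3K4M oocytes, against 38.1 and 27.4 CPM in H3.3WT oocytes, and its groups overlapped. Around Oog1 on chromosome 12 there were 77 genes, of which 6 reached 10 CPM; their median was -0.21 and none had a log2 fold change beyond -1 or 1. Among the 5799 genes at that level in the whole table, 5.05% had a log2 fold change of -1 or less and the median was 0.03. Around Oog1, tested genes below 10 CPM had values between -4.44 ± 0.38 (Gm18629) and 0.60 ± 0.23 (Gm47293). Gm18629 had 0.147 and 0.147 CPM in H3.3K4M oocytes, against 3.25 and 3.58 CPM in H3.3WT oocytes.

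Other lists were examined beside the oogenesins. Of 7 oocyte transcription factors tested, 2 rose and none fell, against 1329 of all 15386 genes called higher. Sohlh1, a helix-loop-helix factor of early follicles, had 8.08 and 9.98 CPM in H3.3K4M oocytes, against 1.45 and 2.13 CPM in H3.3WT oocytes (log2 fold change 2.41 ± 0.26, adjusted p = 3.9e-05, edgeR). Lhx8, a LIM homeobox factor, rose with a log2 fold change of 0.64 ± 0.17 (adjusted p = 0.018, edgeR). Nobox did not pass, with 760 and 537 CPM in H3.3K4M oocytes, against 512 and 516 CPM in H3.3WT oocytes (0.43 ± 0.23, adjusted p = 0.198, edgeR). None of the 7 Ras and Ral signalling genes tested passed, a list that holds Ralgds, the gene of the protein bound by OOG1. Of 8 genes of CUL2 ligases tested, 1 rose and none fell. Of all genes tested, 22.4% were called in either direction, so these small counts are a description only.

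Cell type markers were set beside these values. All 16 oocyte markers had at least 10 CPM in both groups of growing oocytes, and they summed to 60399 and 59943 CPM with H3.3K4M and to 58720 and 60273 CPM with H3.3WT. Markers of granulosa cells, which surround the oocyte, summed to 13.6 and 14.3 CPM with H3.3K4M and to 22.8 and 18.3 CPM with H3.3WT, with Amh at 0 in all 4 libraries; 6 of the 12 were tested, 3 fell and 1 rose. Endothelial markers summed to 1.69 and 2.03 CPM with H3.3K4M and to 9.68 and 8.57 CPM with H3.3WT, with Cdh5 at 0. Blood and immune markers summed to 39.0 and 37.8 CPM with H3.3K4M and to 32 and 23.5 CPM with H3.3WT, and stroma and theca markers to 2.57 and 2.15 CPM with H3.3K4M and to 1.18 and 1.13 CPM with H3.3WT. Sums of a few markers do not measure the share of other cells, and the part of such cells in the oogenesin values was not tested. Of the 16 oocyte markers 2 rose and 1 fell, and of 3 endothelial markers tested 2 fell and 0 rose. Of 5 blood and immune markers tested 1 rose and 0 fell, as did 1 and 0 of 3 stroma and theca markers. Of all 15386 genes tested, 1329 were called higher and 2115 lower. H3f3a, a gene of H3.3, had 364 and 333 CPM with H3.3K4M and 290 and 288 CPM with H3.3WT; counts per gene do not separate a transgene from the gene itself, so they do not check the genotype.

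**Figure D4:**
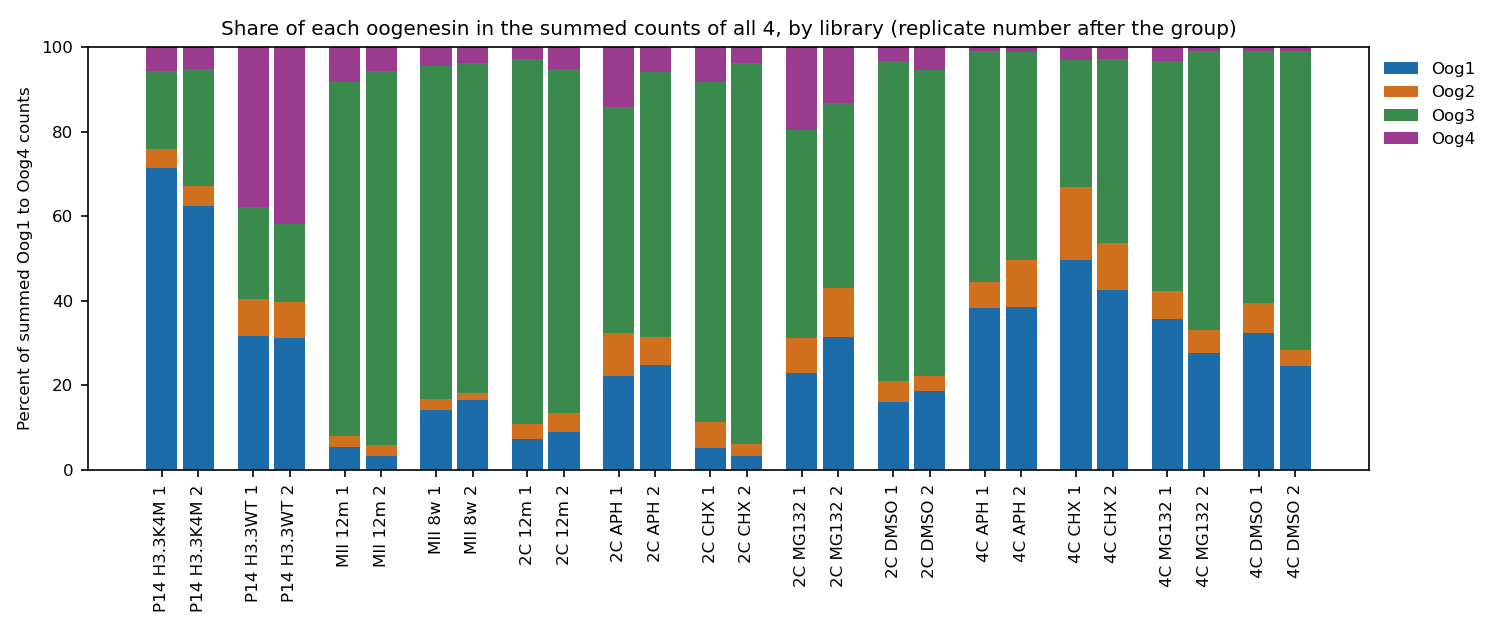
Percent of the summed Oog1 to Oog4 counts held by each gene, 1 bar per library of oocytes and embryos. Oog4 and Oog1 lead in H3.3WT growing oocytes, Oog1 leads in H3.3K4M growing oocytes, and Oog3 holds between 43.8% and 90.3% in MII oocytes and 2-cell embryos.

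Between growing and mature oocytes the order of the 4 genes turned over. Oog3 had 5200 and 7127 CPM in MII oocytes of 8-week females, against 902 and 684 CPM in H3.3WT growing oocytes, a log2 fold change of 2.77 ± 0.27. Oog4 had 287 and 338 CPM in these MII oocytes, against 1563 and 1570 CPM in H3.3WT growing oocytes, a log2 fold change of -2.53 ± 0.31. Oog3 was thus higher and Oog4 lower in mature oocytes, with no overlap for either, in a comparison in which 61.8% of all genes were called. Oog2 had 177 and 146 CPM in MII oocytes, against 361 and 323 CPM in H3.3WT growing oocytes (-1.30 ± 0.21). Oog1 had 924 and 1496 CPM in MII oocytes, against 1308 and 1165 CPM in H3.3WT growing oocytes (-0.22 ± 0.36), and its groups overlapped; without MII replicate 1 of 8-week females the value was 0.12. The H3.3WT libraries served in choosing the members, so no test is given, and stage and transgene cannot be told apart in this comparison. Per kb of exon, MII oocytes of 8-week females had 3305 CPM per kb of Oog3, 494 of Oog1, 158 of Oog4 and 65.0 of Oog2.

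**Figure D5:**
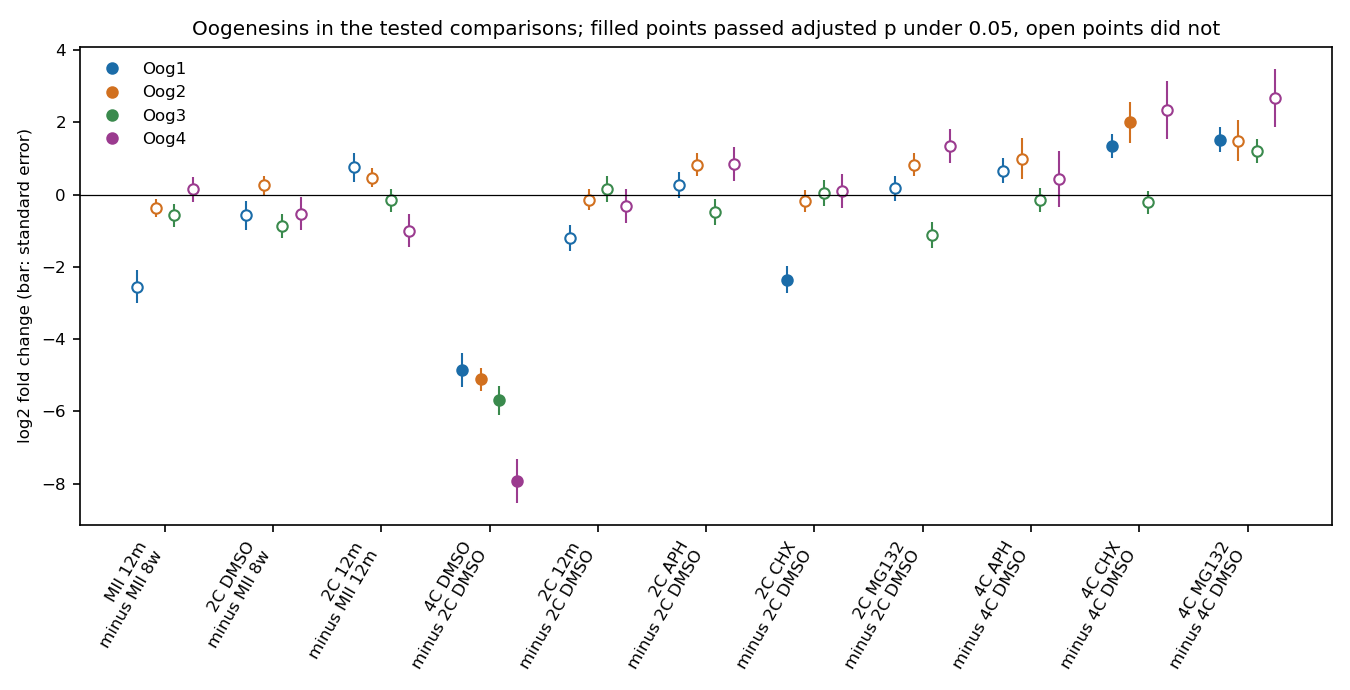
Log2 fold change of each oogenesin in the 11 comparisons of MII oocytes and embryos that were tested, first-named group minus second; bars are standard errors and filled points passed an adjusted p under 0.05 in edgeR's quasi-likelihood test. All 4 points are filled in the step from 2-cell to 4-cell embryos; the other filled points are Oog1 with CHX at both stages, Oog2 with CHX at the 4-cell stage and Oog1 with MG132 at the 4-cell stage.

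Maternal age was compared in MII oocytes, where 0.802% of the genes tested were called. None of the 4 oogenesins passed. Oog1 had 296 and 164 CPM in MII oocytes of 12-month females, against 924 and 1496 CPM in those of 8-week females. The groups did not overlap, and the log2 fold change of -2.55 ± 0.45 had an adjusted p of 0.0789 in edgeR's quasi-likelihood test, the smallest of the 4. The call depends on the setting: it passed with DESeq2, without a filter on low counts and without either library of 8-week females (-2.94 without replicate 1 and -2.02 without replicate 2), and over all alternatives the adjusted p ranged between 1.4e-06 and 0.586. Oog3 had 4689 and 4402 CPM at 12 months, against 5200 and 7127 CPM at 8 weeks (-0.58 ± 0.32, adjusted p = 0.47). Oog2 had 146 and 123 CPM at 12 months, against 177 and 146 CPM at 8 weeks (-0.37 ± 0.24, adjusted p = 0.542). Oog4 had 473 and 284 CPM at 12 months, against 287 and 338 CPM at 8 weeks (0.14 ± 0.34, adjusted p = 0.895). The groups of Oog3 did not overlap, while those of Oog2 and Oog4 did. Of the near copies of Oog1, Gm2042 had 507 and 318 CPM at 12 months, against 511 and 800 CPM at 8 weeks, with no overlap. Gm10436 had 1013 and 725 CPM at 12 months, against 868 and 1847 CPM at 8 weeks, with overlap. Summed over the 3 genes, the level was 1816 and 1207 CPM at 12 months, against 2303 and 4143 CPM at 8 weeks, with no overlap. The number of genes called in this comparison, 121, was 1105 or 1074 without replicate 1 or 2 of 8-week females, and 44 or 0 without replicate 1 or 2 of 12-month females. Of the 18 PRAME-like genes tested, 1 rose and 0 fell.

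The next comparison was between 2-cell embryos and MII oocytes. In 2-cell embryos with DMSO against MII oocytes of 8-week females, where 20.2% of the genes tested were called, none of the 4 passed. Oog3 had 4652 and 7334 CPM in 2-cell embryos, against 5200 and 7127 CPM in MII oocytes. Oog1 had 983 and 1882 CPM in 2-cell embryos, against 924 and 1496 CPM in MII oocytes. Oog4 had 205 and 552 CPM in 2-cell embryos, against 287 and 338 CPM in MII oocytes. For these 3 genes the groups overlapped. Oog2 had 303 and 368 CPM in 2-cell embryos, against 177 and 146 CPM in MII oocytes, and did not overlap. The fitted log2 fold change was -0.86 ± 0.33 for Oog3 (adjusted p = 0.0899, edgeR) and 0.25 ± 0.26 for Oog2 (adjusted p = 0.525). It was -0.58 ± 0.40 for Oog1 (adjusted p = 0.325) and -0.53 ± 0.45 for Oog4 (adjusted p = 0.42). Scaling matters here: the median log2 fold change of all genes was 0.33 in this fit and 1.13 when library totals were used without a scaling factor. With library totals, an alternative chosen after seeing the data, Oog2 rose by 1.06 on the log2 scale (adjusted p = 0.0219, range over its alternatives 0.0219 to 0.749), the values of Oog1 and Oog4 turned to 0.24 and 0.28, and that of Oog3 was -0.04. Summed over Oog1 and its near copies, the level was 5135 and 5388 CPM in 2-cell embryos, against 2303 and 4143 CPM in MII oocytes, with no overlap. Without DMSO replicate 1 the number of genes called was 2811, against 4641.

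The same step in 12-month females also gave no call among the 4, against 12.6% of all genes. Oog1 had 470 and 531 CPM in 2-cell embryos of 12-month females, against 296 and 164 CPM in their MII oocytes (log2 fold change 0.75 ± 0.40, adjusted p = 0.259, edgeR). Oog4 had 187 and 308 CPM in these embryos, against 473 and 284 CPM in these oocytes (-1.0 ± 0.45, adjusted p = 0.182). Oog1 did not overlap between the groups and Oog4 did. The step of 12-month females minus that of young females differed by 1.34 ± 0.57 for Oog1 on the log2 scale (adjusted p = 0.653), a contrast chosen after seeing the data in which 0.0174% of genes were called (4 genes, and between 0 and 24 with 1 library left out). Other PRAME-like genes rose at the 2-cell stage: 17 of 38 tested passed as higher and 2 as lower in DMSO embryos against 8-week MII oocytes, with a median log2 fold change of 3.75 against 0.33 for all genes. BC080696 had 21.6 and 39.4 CPM in 2-cell embryos with DMSO and was at 0 in both MII libraries of 8-week females. Pramef25 had 53.8 and 49.9 CPM in these embryos, against 0.0 and 0.0354 CPM in MII oocytes. In 12-month females 14 of 38 rose and 1 fell. Genes entered this fit through counts in any of its groups. Those at or near 0 in MII oocytes, such as BC080696, could come out only as higher. They add to these counts and to the median. The number of all genes called in the step of 12-month females, 2884, was between 1312 and 1551 with any 1 of its libraries left out.

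All 4 oogenesins fell between the 2-cell and the 4-cell stage, each by more than an order of magnitude. Oog3 had 71.1 and 105 CPM in 4-cell embryos with DMSO, against 4652 and 7334 CPM in 2-cell embryos with DMSO. Oog1 had 38.6 and 36.0 CPM in 4-cell embryos, against 983 and 1882 CPM in 2-cell embryos. Oog2 had 8.56 and 5.98 CPM in 4-cell embryos, against 303 and 368 CPM in 2-cell embryos. No 4-cell library came near a 2-cell library for any of the 3. Oog4 had 1.09 and 1.27 CPM in 4-cell embryos, from 36 and 37 counts, against 205 and 552 CPM in 2-cell embryos. All 4 passed edgeR's quasi-likelihood test, against 29.4% of all genes called lower. The log2 fold change was -7.92 ± 0.61 for Oog4 (adjusted p = 6.5e-06), a level 243-fold lower. It was -5.69 ± 0.40 for Oog3 (adjusted p = 3.9e-06, 51.8-fold lower), -5.11 ± 0.32 for Oog2 (adjusted p = 2.3e-06, 34.6-fold lower) and -4.86 ± 0.47 for Oog1 (adjusted p = 2.3e-05, 29.1-fold lower). The median of all genes was -0.57 in this fit and -0.98 with library totals. All 4 calls held under every setting tried and with any 1 library left out. Of 38 other PRAME-like genes tested, 23 fell and 8 rose, with a median of -3.83, against 6739 and 4498 of all 22954 genes. Here too, genes with few or no counts at either stage could move in a single direction only. AA792892 had 6.38 and 6.4 CPM in 4-cell embryos, against 204 and 310 CPM in 2-cell embryos.

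In AB2.2 stem cells the oogenesins were at or near 0. Oog2, Oog3 and Oog4 had 0 counts in all 6 libraries. A count of 0 over the 2 libraries of a group allows up to 0.0701 CPM with CHX, 0.0688 CPM with MG132 and 0.0685 CPM with DMSO, from 3 counts and for counting error only. Oog1 had 2 and 3 counts with CHX, 0 and 0 with MG132, and 1 and 0 with DMSO. None of the 4 had enough counts there for a test. The 6 pluripotency markers summed to between 3767 and 4454 CPM in these libraries, and the 16 oocyte markers to between 227 and 402 CPM. Of these, Kit was the highest in each stem cell group, at a mean of up to 263 CPM, 2 to 4 had at least 10 CPM, and Oosp1 was at 0 in every group.

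The drugs were compared with DMSO at the 2-cell stage. Oog1 fell with cycloheximide, and the other 3 genes did not pass. Oog1 had 219 and 206 CPM in CHX-treated 2-cell embryos, against 983 and 1882 CPM with DMSO. The groups were well apart, and the log2 fold change was -2.36 ± 0.37, a level 5.13-fold lower (adjusted p = 0.00107, edgeR's quasi-likelihood test), against 24.0% of all genes called in either direction. This call held under every setting and with any 1 library left out. Its near copies had similar values: Gm2042 had 193 and 185 CPM with CHX, against 1237 and 1101 CPM with DMSO, and Gm10436 had 420 and 309 CPM with CHX, against 2915 and 2405 CPM with DMSO. Summed over the 3 genes, the level was 832 and 700 CPM with CHX, against 5135 and 5388 CPM with DMSO. Oog3 had 3520 and 5886 CPM with CHX, against 4652 and 7334 CPM with DMSO (log2 fold change 0.05 ± 0.36, adjusted p = 0.94). Oog2 had 270 and 180 CPM with CHX, against 303 and 368 CPM with DMSO (-0.18 ± 0.30, adjusted p = 0.704). Oog4 had 366 and 249 CPM with CHX, against 205 and 552 CPM with DMSO (0.09 ± 0.47, adjusted p = 0.922). Oog3 and Oog4 overlapped between the groups and Oog2 did not. Whether Oog1 differed from the other members was not tested. Of 38 other PRAME-like genes tested, 23 fell and 2 rose with CHX. Again, genes with few or no counts in either group could move in a single direction only. Pramef25 was at 0 in both CHX libraries, against 53.8 and 49.9 CPM with DMSO, and C87499 rose, with 1232 and 1543 CPM with CHX, against 350 and 400 CPM with DMSO.

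MG132 and aphidicolin gave no call among the 4 genes at the 2-cell stage, with 9.77% and 0.201% of all genes called. Oog3 had 3114 and 2913 CPM with MG132, against 4652 and 7334 CPM with DMSO (log2 fold change -1.13 ± 0.36, adjusted p = 0.0748, edgeR). Oog4 had 1241 and 881 CPM with MG132, against 205 and 552 CPM with DMSO (1.34 ± 0.48, adjusted p = 0.103). Oog2 had 535 and 768 CPM with MG132, against 303 and 368 CPM with DMSO (0.83 ± 0.31, adjusted p = 0.116). The groups did not overlap for any of these 3, Oog3 being low and the others high with MG132. Oog1 had 1447 and 2084 CPM with MG132, against 983 and 1882 CPM with DMSO (0.17 ± 0.35, adjusted p = 0.828), with overlap. The DMSO libraries differed from each other more than 2-fold in Oog4, and without DMSO replicate 2 the Oog4 value was 2.34 (adjusted p = 0.0174, range over its alternatives 0.00217 to 0.403). With aphidicolin, Oog2 had 659 and 575 CPM, against 303 and 368 CPM with DMSO (0.83 ± 0.31, adjusted p = 0.372), with no overlap. Oog1 had 1450 and 2119 CPM and Oog3 3502 and 5387 CPM with aphidicolin, both overlapping with DMSO. Oog4 had 922 and 492 CPM with aphidicolin and overlapped with DMSO too. Gm13084, which shares windows with Oog2, had 1534 and 1929 CPM with MG132 and 2138 and 1264 CPM with aphidicolin. With DMSO it had 498 and 585 CPM, so the Oog2 values may hold some of its reads. Among other PRAME-like genes, 13 of 38 fell and 1 rose with MG132, and none passed with aphidicolin. The limit on genes with few or no counts in a group holds for these numbers as well. The number of genes called with aphidicolin, 45, was 5 or 148 without APH replicate 1 or 2 and 18 without DMSO replicate 1. With MG132 it was 2188, against 1025 or 969 without MG132 replicate 1 or 2 and 1024 without DMSO replicate 1.

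The untreated 2-cell embryos of 12-month females were set beside the DMSO embryos of 6-8-week females, a comparison in which age and solvent cannot be told apart. None of the 4 passed, against 1.21% of all genes. Oog1 had 470 and 531 CPM in embryos of 12-month females, against 983 and 1882 CPM in DMSO embryos (log2 fold change -1.19 ± 0.36, adjusted p = 0.16, edgeR). The groups did not overlap. The near copies did not all follow: Gm2042 had 895 and 1017 CPM at 12 months, against 1237 and 1101 CPM with DMSO, with no overlap, but Gm10436 had 2718 and 2383 CPM at 12 months, against 2915 and 2405 CPM with DMSO, with overlap and a log2 fold change of 0.28 ± 0.28. The sum of the 3 genes was 4083 and 3931 CPM at 12 months, against 5135 and 5388 CPM with DMSO. The number of genes called, 272, was 86 or 109 without replicate 1 or 2 of 12-month females and 148 without DMSO replicate 1. Oog3 had 5608 and 4838 CPM at 12 months, against 4652 and 7334 CPM with DMSO, and overlapped. Oog2 had 218 and 267 CPM at 12 months, against 303 and 368 CPM with DMSO. Oog4 had 187 and 308 CPM at 12 months, against 205 and 552 CPM with DMSO.

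At the 4-cell stage, where the oogenesins were already low, the direction with cycloheximide was the opposite for Oog1. Oog1 had 151 and 110 CPM in CHX-treated 4-cell embryos, against 38.6 and 36.0 CPM with DMSO. Oog2 had 52.1 and 29.0 CPM with CHX, against 8.56 and 5.98 CPM with DMSO. Neither gene overlapped between the groups, and every CHX library was the higher. Oog1 rose with a log2 fold change of 1.34 ± 0.34 (adjusted p = 0.0273) and Oog2 with 2.00 ± 0.57 (adjusted p = 0.0416) in edgeR's quasi-likelihood test, against 8.77% of all genes called higher. Both calls rest on few libraries. Without CHX replicate 1, DMSO replicate 1 or DMSO replicate 2 the Oog1 value was 1.21, 1.38 or 1.22 (adjusted p = 0.0903, 0.102 or 0.153), and the Oog2 value was 1.65, 2.27 or 1.69 (adjusted p = 0.145, 0.0893 or 0.199). Over all alternatives the adjusted p ranged between 0.00141 and 0.153 for Oog1 and between 5.2e-04 and 0.199 for Oog2. The median of all genes was 0.44 in this fit and 0.90 with library totals, and both members lie above it. Oog4 had 9.02 and 7.48 CPM with CHX, against 1.09 and 1.27 CPM with DMSO (2.34 ± 0.80, adjusted p = 0.0733), with no overlap. Oog3 had 91.8 and 113 CPM with CHX, against 71.1 and 105 CPM with DMSO (-0.22 ± 0.33, adjusted p = 0.67), with overlap. Gm10436, the near copy of Oog1, rose as well, with 309 and 243 CPM with CHX, against 36.8 and 44.1 CPM with DMSO (2.31 ± 0.47, adjusted p = 0.0105). Gm2042 had 124 and 102 CPM with CHX, against 23.9 and 23.8 CPM with DMSO. Gm13084, which shares windows with Oog2, had 55.7 and 37.7 CPM with CHX, against 11.8 and 3.3 CPM with DMSO. The number of genes called in either direction, 4290, was between 2335 and 2602 with any 1 CHX or DMSO library left out. Of 36 PRAME-like genes tested, 6 rose and 10 fell, against 1975 and 2315 of all 22520 genes.

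With MG132, 4-cell embryos had higher values of all 4 genes, of which 1 passed, against 3.06% of all genes called higher. Oog1 had 146 and 95.0 CPM with MG132, against 38.6 and 36.0 CPM with DMSO (log2 fold change 1.52 ± 0.35, adjusted p = 0.0341, edgeR). Oog3 had 223 and 228 CPM with MG132, against 71.1 and 105 CPM with DMSO (1.21 ± 0.33, adjusted p = 0.0628). Oog2 had 27.0 and 19.0 CPM with MG132, against 8.56 and 5.98 CPM with DMSO (1.49 ± 0.57, adjusted p = 0.151). None of the 3 overlapped between the groups. Oog4 had 14.1 and 3.23 CPM with MG132, against 1.09 and 1.27 CPM with DMSO (2.67 ± 0.81, adjusted p = 0.083), and both MG132 libraries were the higher. The Oog1 call was lost without MG132 replicate 1 (1.25, adjusted p = 0.129), DMSO replicate 1 (1.59, adjusted p = 0.113) or DMSO replicate 2 (1.43, adjusted p = 0.165), and over all alternatives its adjusted p ranged between 4.8e-04 and 0.165. Summed over Oog1 and its near copies, the level was 433 and 256 CPM with MG132, against 99.3 and 104 CPM with DMSO. The number of genes called in either direction, 1663, was between 581 and 1050 with any 1 MG132 or DMSO library left out. Aphidicolin gave 0 calls among all genes at this stage in edgeR's quasi-likelihood test, with 1846 genes at an unadjusted p under 0.05 and 264 called by DESeq2; the share called was 0.0%. Oog1 had 40.5 and 91.8 CPM with aphidicolin, against 38.6 and 36.0 CPM with DMSO (0.66 ± 0.34, adjusted p = 0.641), with no overlap. Oog2 had 6.65 and 26.7 CPM with aphidicolin, against 8.56 and 5.98 CPM with DMSO (0.99 ± 0.56, adjusted p = 0.652). Oog3 had 57.8 and 118 CPM with aphidicolin, against 71.1 and 105 CPM with DMSO. Oog4 had 0.92 and 2.68 CPM with aphidicolin, against 1.09 and 1.27 CPM with DMSO, and the last 3 genes overlapped.

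Whether a drug acted differently at the 2 stages was tested in 1 fit of all embryo libraries, a contrast chosen after seeing the data. For cycloheximide, the change at the 2-cell stage minus that at the 4-cell stage was -3.76 ± 0.55 for Oog1 (adjusted p = 2.2e-04) and -2.24 ± 0.64 for Oog2 (adjusted p = 0.0208), both called by edgeR's quasi-likelihood test, against 20.9% of all genes. The median of all genes was -1.25. It was -2.32 ± 0.83 for Oog4 (adjusted p = 0.0563) and 0.21 ± 0.52 for Oog3 (adjusted p = 0.888), neither called. The Oog2 call was lost without any 1 of 4 libraries, namely 2-cell CHX replicate 2 (-2.0), 2-cell DMSO replicate 2 (-2.05), 4-cell CHX replicate 1 (-1.86) and 4-cell DMSO replicate 2 (-1.98), and its adjusted p ranged between 0.00104 and 0.0786 over all alternatives. For MG132 the difference was -2.31 ± 0.52 for Oog3 (adjusted p = 0.009), called, against 11.2% of all genes and a median of -0.42. For the other 3 genes it was -1.31 ± 0.54 (Oog1), -0.61 ± 0.63 (Oog2) and -1.33 ± 0.82 (Oog4), none called. The calls for Oog1 with cycloheximide and Oog3 with MG132 held with any 1 library left out. The number of genes called for cycloheximide, 5688, was 3713 without 4-cell DMSO replicate 2. For MG132 it was 3051, against 1940 or 1603 without 2-cell MG132 replicate 1 or 2, 1859 without 2-cell DMSO replicate 1 and 1972 without 4-cell DMSO replicate 2. For aphidicolin no gene in the table was called by edgeR, with 2892 genes at an unadjusted p under 0.05 and 723 called by DESeq2; with 1 library left out edgeR called between 0 and 162.

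Across the 16 group means the levels of the 4 oogenesins went together. On the log2(CPM + 1) scale Pearson's r between members was between 0.891 (Oog1 with Oog4) and 0.963 (Oog1 with Oog2), over groups that share the contrast between oocytes and stem cells. Oog2 stood at place 9 in likeness to Oog1 among all 14361 genes compared, while Oog4 stood at place 158 for Oog1 and Oog1 at place 593 for Oog4. Among these genes, which have at least 10 CPM in some group, and leaving out predicted gene models, the gene most like Oog1 was Khdc1b (r = 0.986), a KH domain gene of oocytes and 2-cell embryos. That most like Oog2 was Trim75 (0.98), a tripartite motif gene, followed by Bmp15 (0.979), the oocyte growth factor. That most like Oog3 was Tcl1b1 (0.992), a gene of the Tcl1 family, followed by Nlrp9c (0.99), a NLR family gene. That most like Oog4 was Myoc (0.989), the myocilin gene, followed by Myocos (0.988), its antisense gene; without knowledge of strand use in counting these last 2 cannot be told apart. The 5 genes most like each member differed between members except for Unc13c, which was among the 5 of Oog1 (0.959) and of Oog3 (0.987).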

How the data were processed

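RNA was measured in 32 libraries, 2 in each of 16 groups. The authors deposited whole-number counts per gene and per repeat subfamily (55335 genes, 1153 subfamilies). Smart-Seq2 was used for oocytes and embryos and a TruSeq kit with poly(A) capture for stem cells, per the labels' protocols. Per the submitters' processing notes, cutadapt 1.16, STAR and the build mm10 were used; the sources used here do not give the counting tool, its use of strand or its treatment of reads with several matches.

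Genes were named through GENCODE M21 by Ensembl identifier (55154 matched, 181 did not). Counts were fitted with edgeR 4.0.16 in R 4.3.3 (filterByExpr with a minimum count of 10 and a minimum total of 15, TMM scaling over genes and repeats, robust quasi-likelihood F-test), and p-values were Benjamini-Hochberg adjusted over all genes tested, with a threshold of 0.05. Fits held all groups of a stage or step, which share 1 estimate of the spread. A gene entered a fit when enough of that fit's libraries, of whatever group, reached the minimum count. Counts of rises and falls in the gene lists therefore partly reflect which genes entered. SE is the size of the log2 fold change divided by the square root of F. DESeq2 1.42.0, other scalings and filters, a replicate block, fits of only the 2 groups compared and leaving out each library were alternatives; library totals without a scaling factor, the differences between stages and a crossed block were added after seeing the data. The scripts were tested on simulated data. Sequences were taken from RefSeq promoters, with all 4 members matched, and aligned with Biopython 1.88. The total counts, between 14313718 and 34713159, set the precision of low values, and limits from counts cover counting error only, since reads carry no molecular identifiers.

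Named PRAME-like genes are among up to 4 called genes per comparison with the largest change and at least 10 CPM in the higher group; near copies and genes sharing a promoter run were named from sequence. C87499 with cycloheximide, AA792892 at the 4-cell stage, and C87977 and E330014E10Rik in growing oocytes were chosen after their values were seen. The members and all gene lists were chosen with earlier results of these data known.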

Additional observations from a re-analysis of the deposited data

Results flagged for a closer look

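3 drug responses of oogenesins differed between the 2-cell and the 4-cell stage in a test of the difference itself, made in 1 edgeR fit of all embryo libraries and chosen after seeing the data. With cycloheximide, Oog1 had 219 and 206 CPM at the 2-cell stage, against 983 and 1882 CPM with DMSO, and 151 and 110 CPM at the 4-cell stage, against 38.6 and 36.0 CPM with DMSO. The difference of the 2 log2 fold changes, 2-cell minus 4-cell, was -3.76 (adjusted p = 2.2e-04). For Oog2 with cycloheximide it was -2.24 (adjusted p = 0.0208), with 270 and 180 CPM at the 2-cell stage, against 303 and 368 CPM with DMSO, and 52.1 and 29.0 CPM at the 4-cell stage, against 8.56 and 5.98 CPM with DMSO. The Oog2 call rests on few libraries: it was lost without any 1 of 4 libraries (adjusted p between 0.0515 and 0.0786, range over all its alternatives 0.00104 to 0.0786), while those of Oog1 and Oog3 held with any 1 library left out. For Oog3 with MG132 it was -2.31 (adjusted p = 0.009), with 3114 and 2913 CPM at the 2-cell stage, against 4652 and 7334 CPM with DMSO, and 223 and 228 CPM at the 4-cell stage, against 71.1 and 105 CPM with DMSO. Neither MG132 change of Oog3 passed by itself in edgeR's test (adjusted p = 0.0748 at the 2-cell and 0.0628 at the 4-cell stage). For cycloheximide the median of the stage difference over all genes was -1.25 and 20.9% of genes were called. For MG132 the median was -0.42 and 11.2% were called. With 4 members, counts of calls are a description only. Oog1 shares most of its sequence windows with its near copies Gm2042 and Gm10436, and Oog2 shares a smaller part with Gm13084. The sources used here do not say how shared reads were counted. The cause of these differences was not tested.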

How the results depend on the processing

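Over 68 results, 524 values were recomputed under other settings and 336 with 1 library left out; 17 of the 524 and 39 of the 336 changed sign. The calls of all 4 genes between the 2-cell and the 4-cell stage, of Oog1 with CHX at the 2-cell stage, and of the stage differences of Oog1 with CHX and Oog3 with MG132 held under every alternative run. With DESeq2 a call was gained for Oog1 in 2-cell embryos of 12-month females against DMSO (-1.23), in MII oocytes by age (-2.55) and in the MG132 stage difference (-1.48), for Oog3 with MG132 at the 2-cell (-1.25) and the 4-cell stage (1.21), and for Oog4 with CHX (2.37) and MG132 (2.68) at the 4-cell stage and in the CHX stage difference (-2.24). Without a filter on low counts the same values were -1.23, -2.55, -1.47, -1.09, 1.20, 2.31, 2.67 and -2.25, and calls were also gained for Oog2 with MG132 at the 4-cell stage (1.48), Oog3 in DMSO 2-cell embryos against MII oocytes (-0.86), and Oog4 in the step of 12-month females (-1.01) and with MG132 at the 2-cell stage (1.37). With at least 5 CPM in 2 libraries, Oog3 passed with MG132 at the 2-cell (-1.25) and the 4-cell stage (1.23), and Oog4 with CHX (2.44) and MG132 (2.69) at the 4-cell stage. With only the 2 groups compared, Oog3 with MG132 (1.19) and Oog4 with CHX (2.26) at the 4-cell stage and Oog4 in the step of 12-month females (-0.98) passed. With library totals, Oog2 in DMSO 2-cell embryos against MII oocytes (1.06) and Oog4 in the CHX stage difference (-3.10) passed, and Oog4 in MII against H3.3WT growing oocytes moved to -2.33. The cause of these changes was not tested.

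With 1 library left out, the range was 1.21 to 1.47 for Oog1 and 1.65 to 2.28 for Oog2 with CHX at the 4-cell stage, 1.25 to 1.73 for Oog1 and 1.35 to 3.34 for Oog4 with MG132 there, and 0.80 to 2.34 for Oog4 with MG132 at the 2-cell stage. It was -3.02 to -2.02 for Oog1 and -0.89 to -0.21 for Oog3 in MII oocytes by age, -1.15 to -0.38 for Oog3 in DMSO 2-cell embryos against MII oocytes, and -2.55 to -1.86 for Oog2 and -2.89 to -1.38 for Oog4 in the CHX stage difference. Between H3.3K4M and H3.3WT oocytes it was -1.0 to -0.48 for Oog1, -2.88 to -2.60 for Oog2 and -4.90 to -4.47 for Oog4. Between MII and H3.3WT growing oocytes it was -0.74 to 0.12 for Oog1, which changed sign, and -2.77 to -2.37 for Oog4.

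Groups share replicate numbers, and no label says what a number marks. For each gene, the difference of replicate 1 minus replicate 2 was taken within each group on a log CPM scale. Between 2-cell drug and vehicle groups these differences correlated over genes with r over 0.1 in 5 of 6 pairs (0.0926 to 0.1855). A shared effect of the replicate number at that stage thus cannot be set aside. The main values have no block. With the replicate block Oog3 with MG132 at the 4-cell stage passed (1.24, adjusted p = 0.0184, edgeR, range over its alternatives 0.00453 to 0.287), and no other member's call changed. Between H3.3K4M and H3.3WT oocytes the replicate differences correlated over genes with r = -0.1684. A crossed block added after seeing the data called 5727 genes, against 3444 without a block and 2822 with the plain block.

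H3.3K4M oocytes had 1463 called genes with 5 CPM. MII oocytes by age had 121, against 1017 with DESeq2, 788 without a filter and 188 with the block. 2-cell embryos of 12-month females against DMSO had 272, against 1113, 962 and 438, and 116 with only the 2 groups; the step of 12-month females had 2884, against 4565 with DESeq2 and 5722 with only the 2 groups. Aphidicolin had 45 at the 2-cell stage, against 594 with DESeq2, 615 without a filter, 93 with 5 CPM, 117 with the block, 15 with library totals and 0 with only the 2 groups, and 0 at the 4-cell stage, against 264 with DESeq2 and 347 without a filter; its stage difference had 0, 723 and 849. CHX had 5367 at the 2-cell stage, against 3359 with only the 2 groups, and 4290 at the 4-cell stage, against 6727 with DESeq2 and 7167 with only the 2 groups. MG132 had 2188 at the 2-cell stage, against 3622 with DESeq2, and 1663 at the 4-cell stage, against 4052 with DESeq2, 3463 without a filter and 2548 with 5 CPM; its stage difference had 3051, against 5158 with DESeq2. The difference between steps by age had 4, against 252 with DESeq2, 309 without a filter and 1 with the block. MII against H3.3WT growing oocytes had 10978, against 7201 with 5 CPM. With library totals the calls split into 4410 higher and 1007 lower for DMSO 2-cell embryos against MII oocytes, against 2317 and 2324 in the TMM fit, and into 2769 and 1546 for CHX at the 4-cell stage, against 1975 and 2315. They were 714 and 1848 for H3.3K4M, against 1329 and 2115; 1900 and 962 for the step of 12-month females, against 1332 and 1552; and 48 and 248 for embryos by age, against 105 and 167. They were 1656 and 3817 for CHX at the 2-cell stage, against 2466 and 2901, 811 and 759 for MG132 at the 4-cell stage, against 689 and 974, and 1074 and 5766 for the CHX stage difference, against 1809 and 3879. Library sizes from genes only gave 2737 and 1654 for the young step and 1509 and 1155 for that of 12-month females. Low counts (Oog4 in 4-cell embryos) limit precision.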
